A study of Mus musculus with 12 samples.

Results

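Semaphorins, plexins and neuropilins were picked from the gene tables by symbol: every symbol that starts with Sema and a digit, the plexins named Plxna, Plxnb, Plxnc or Plxnd with a digit, and Nrp1 and Nrp2. This gave 31 of the 23513 genes in the tables, namely 20 semaphorins, 9 plexins and both neuropilins. The tables hold nuclei of the embryonic mouse cortex from a study of prenatal alcohol exposure (PAE), profiled one embryo per library by single nucleus RNA sequencing (snRNAseq), in which every captured RNA carries a barcode, the unique molecular identifier (UMI), so that molecules and not copies are counted. Pregnant C57BL/6J dams received saline or ethanol (EtOH), per the study's methods at 2.5 g/kg of a 25% v/v solution given intraperitoneally on 6 days, E8.5 through E13.5. Cortices were taken at E14.5 (the labels give embryonic day 14). No embryo carries a transgene or an allele that the labels name. Dam S1 gave 2 of the 5 saline embryos (S1-1, S1-2) and dam S2 the other 3 (S2-1, S2-2, S2-4). Of the 6 EtOH embryos, dam E1 gave E1-1 and E1-2 and dam E2 gave E2-1 to E2-4. The labels put the embryos of S1 and E1 in batch 1 and those of S2 and E2 in batch 2, without saying what a batch is. A further embryo labelled saline, S2-3, was not analysed here.

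Semaphorins are guidance proteins of growing axons and migrating neurons. Class 3 semaphorins are secreted, those of classes 4, 5 and 6 span the membrane, and class 7 is held by a lipid anchor. Plexins are their signalling receptors, and most class 3 semaphorins reach A-type plexins through the co-receptors neuropilin 1 and neuropilin 2. In the developing cortex this system is known for steering callosal and corticofugal axons, for sorting migrating interneurons away from the striatum and for guiding newborn projection neurons.

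The files analysed here hold 50550 nuclei in 25 clusters made by the authors, of which 5 are radial glial cells (RGCs), 2 intermediate progenitor cells (IPCs), 8 projection neurons (PN), 7 interneurons (Int) and 3 other cells. The authors name these 3 striatal interneurons (Cluster 11), Layer I Cajal-Retzius cells (Cluster 14) and neurons of unknown type (Cluster 19). Most defining markers were highest where the names place them: Eomes was highest in the IPC Cluster 6 (414 CPM), Neurod2 in the early PN Cluster 9 (294 CPM), Gad2 in the Int Cluster 23 (1248 CPM), Rarb in Cluster 11 (1910 CPM), Reln in Cluster 14 (10477 CPM) and Wnt8b in the cortical hem RGC Cluster 21 (316 CPM). Exceptions were Sox2, a radial glia marker highest in the Int Cluster 23 (106 CPM), and Bcl11b, a PN marker highest in Cluster 11 (1907 CPM). The other striatal markers, Ebf1 (12463 CPM), Foxp1 (1756 CPM) and Isl1 (277 CPM), were also highest in Cluster 11. Whether the cells of Cluster 11 are interneurons was not tested, and it is called the striatal cluster below. Here CPM is counts per 1000000 UMIs of the summed nuclei of 1 embryo in 1 cluster, and a level is the mean CPM of the embryos with at least 10 nuclei in that cluster, with the SD between embryos and their number n. CPM is not divided by gene length, so levels are compared between clusters for the same gene and not between genes. The clusters were built from the same nuclei and genes, so the maps over clusters are a description with no test. A summed level does not tell fewer positive nuclei from less RNA per nucleus.

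Saline embryos had 44017566 to 83061737 UMIs and EtOH embryos 14078316 to 38034349, or 7474 to 10873 and 4858 to 8237 UMIs per nucleus. By whole-embryo counts, the saline library labelled S2-4 goes against its label. Over 7656 genes its log2 CPM correlated at r = 0.989 to 0.996 with the EtOH embryos and at 0.967 to 0.981 with the other saline embryos. It was nearer on average to the EtOH embryos in 15 of 25 clusters. Its 7474 UMIs per nucleus lay within the range of the EtOH embryos, and after thinning each nucleus to 2000 UMIs its correlations were 0.988 to 0.995 and 0.965 to 0.981. Its littermates S2-1 and S2-2 differed from the other embryos on several members in the PN clusters, as described below. The pairs given in full and the counts of calls are therefore shown with all embryos and without these libraries. Between any 2 libraries 1 to 18 cell barcodes were shared, at most 0.384% of the smaller one.

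The promoters of 3 members are printed because these genes carry the main patterns: Nrp1 and Sema3c had their highest level in the same cluster, and Sema3c and Sema5b are the members called after EtOH. The sequences are RefSeq's on GRCm38.p6, from 250 bases before to 50 bases after the start annotated in the promoter set, 5′ to 3′ on the gene's own strand. This start differs from the gene start of GENCODE M21, which is 128358604 for Nrp1, 17574281 for Sema3c and 35541145 for Sema5b. By GENCODE the windows of Nrp1 and Sema3c lie inside the gene, and that of Sema5b spans its start. Capitals mark CAGATG on either strand, an E-box form bound by proneural factors, and CAGCTG, another E-box form, was searched as well.
Nrp1, chr8:128358823-128359122, plus strand: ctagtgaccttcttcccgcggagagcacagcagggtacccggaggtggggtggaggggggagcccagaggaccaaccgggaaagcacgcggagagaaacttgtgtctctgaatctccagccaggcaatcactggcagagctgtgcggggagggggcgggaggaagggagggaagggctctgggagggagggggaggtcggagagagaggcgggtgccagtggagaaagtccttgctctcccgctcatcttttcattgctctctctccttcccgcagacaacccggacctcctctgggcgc
Sema3c, chr5:17574566-17574865, plus strand: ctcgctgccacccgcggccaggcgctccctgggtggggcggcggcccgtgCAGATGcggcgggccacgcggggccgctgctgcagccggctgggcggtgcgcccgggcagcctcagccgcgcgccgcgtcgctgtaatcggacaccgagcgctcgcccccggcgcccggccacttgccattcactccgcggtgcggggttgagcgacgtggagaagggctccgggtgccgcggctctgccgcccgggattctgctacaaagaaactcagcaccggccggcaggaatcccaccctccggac
Sema5b, chr16:35541112-35541411, plus strand: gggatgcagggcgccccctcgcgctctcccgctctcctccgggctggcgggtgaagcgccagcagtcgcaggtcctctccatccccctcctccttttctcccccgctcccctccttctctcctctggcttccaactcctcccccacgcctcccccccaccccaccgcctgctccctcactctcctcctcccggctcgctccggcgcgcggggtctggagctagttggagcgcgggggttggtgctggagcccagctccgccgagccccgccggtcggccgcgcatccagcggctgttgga
The windows are 64% (Nrp1), 75.7% (Sema3c) and 73% (Sema5b) G and C, against a median of 52.7% over all 32851 promoters of the table. Sema3c holds 1 CAGATG, and the other 2 windows hold neither motif. Among the 37 promoters listed for 26 members, 2 hold CAGATG and 6 hold CAGCTG, and 17.2% and 16.3% of all promoters do. Such a match is only a run of letters in this window and says nothing of binding.

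Of the 31 members, 30 had at least 100 UMIs and were mapped, and Plxnb3 with 35 UMIs was not. The highest level lay in a PN cluster for 14 members, in an Int cluster for 6, in an RGC cluster for 4, in an IPC cluster for 2 and in another cluster for 4. The early PN Cluster 9 held the highest level of 5 members, Nrp1, Plxna2, Plxna4, Sema3c and Sema4c, more than any other cluster. For 16 of the 30 members the highest cluster was the same under all 20 other ways of computing the map, and Sema4c kept Cluster 9 in 8 of the 20. PN clusters are 8 of the 25, and no share over all genes stands beside these counts, so they are not read as a preference.

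Among the secreted ligands, Sema3c was highest in early and in caudal subcortical projection neurons. Sema3c, which binds neuropilin 1 and neuropilin 2 and attracts cortical axons, reached 376 ± 61.8 CPM (SD, n = 11) in Cluster 9, and a mean of 257 CPM (SD 72.9) in the caudal subcortical PN Cluster 16. The level in Cluster 9 was above that in Cluster 16 in 10 of 11 embryos. In the rostral subcortical PN Cluster 4 it was 22.9 ± 9.73 CPM, 11.2-fold below Cluster 16, and the order held in 11 of 11 embryos. PN 1 (Cluster 8, 164 CPM) and the Int Cluster 15 (157 CPM) came next after Cluster 16.

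Sema3a, which repels axons that carry neuropilin 1 and plexin A4, had another distribution. Its highest level, 575 ± 98.9 CPM, was in the striatal Cluster 11. The non-mitotic RGC Cluster 12 followed with 479 ± 62.9 CPM and the Int Cluster 18 with 473 CPM. Cluster 11 was above Cluster 12 in 8 of 11 embryos, so these neighbours did not differ beyond their spread. Sema3f, a ligand of neuropilin 2, was also highest in Cluster 11 at 49.3 ± 8.63 CPM, above the next cluster (Cluster 4, 31.6 CPM) in 11 of 11 embryos. Migrating interneurons (Cluster 5) had 286 CPM of Sema3a and 20.1 CPM of Sema3f, below the striatal cluster in 11 of 11 embryos for each.

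Sema3e, the ligand of plexin D1, was concentrated in 2 clusters, with 217 ± 94.3 CPM in the Int Cluster 15 and 183 ± 108 CPM in the PN Cluster 24, against a median of 19.6 CPM over the 25 clusters. The spread between embryos was too wide to order these clusters (Cluster 15 higher in 6 of 10 embryos). Sema3d was low, and its highest mean (25.5 CPM in Cluster 24) rested on 1 embryo. Sema3g, with 150 UMIs in all, was highest in the non-mitotic IPC Cluster 6 (2.82 CPM) and above the mitotic IPC Cluster 17 in 11 of 11 embryos. Sema3b had 111 UMIs in all, too few to order the clusters.

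The class 4 ligands had no map in common. Sema4d, the ligand of plexin B1, was highest in subcortical and callosal neurons, with 206 ± 39.6 CPM in Cluster 16 and 173 ± 20.6 CPM in the callosal PN Cluster 1, while RGC clusters had 28.0 to 56.1 CPM and Int clusters 11.6 to 63.1 CPM. Sema4g (54.8 CPM in Cluster 4 against 9.75 CPM in Cluster 2) and Sema4f (29.2 CPM in Cluster 25 against 3.08 CPM in Cluster 2) were lowest in RGC 1, Cluster 2. Sema4a was highest in the Int Cluster 7 and in Cluster 19, at 30.7 CPM each. Sema4b was spread more evenly, from 49.9 CPM in the non-mitotic IPC Cluster 6 to 16.4 CPM in Cluster 22. Sema4c, a ligand of plexin B2, had nearly the same mean in Cluster 9 (22.1 CPM) and Cluster 1 (21.9 CPM), and Cluster 9 was highest in only 8 of 20 other ways of computing the map.

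Both class 5 semaphorins, transmembrane proteins with thrombospondin repeats, had their highest levels in progenitor clusters. Sema5a had 1999 ± 208 CPM in the non-mitotic RGC Cluster 12, above every other cluster and above the mitotic IPC Cluster 17 (1007 ± 174 CPM) in 11 of 11 embryos. Among the RGC clusters it went down to 146 CPM, in the cortical hem Cluster 21. Its lowest level was 67.7 ± 24.9 CPM in the callosal PN Cluster 1, 29.5-fold lower. Sema5b had 798 ± 51.1 CPM in Cluster 3, the interneuron precursors, and 774 ± 46.7 CPM in Cluster 12. These means did not differ beyond their spread (6 of 11 embryos higher in Cluster 3). Over the 25 clusters the 2 genes ranked alike (Spearman correlation 0.65, n = 25 clusters that share libraries, given as a description).

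Class 6 semaphorins, which signal to A-type plexins without neuropilin, were split by cell type. Sema6a, a ligand of plexin A2 and plexin A4, was highest in the Cajal-Retzius Cluster 14 (1455 ± 214 CPM), followed by the cortical hem RGC Cluster 21 (659 ± 106 CPM), with Cluster 14 higher in 10 of 10 embryos. Sema6d, a ligand of plexin A1, was highest in the striatal Cluster 11 (2854 ± 497 CPM) and in the small PN Clusters 25 (2471 ± 629 CPM, n = 7) and 24 (2340 CPM), and lowest in RGC 1 (131 ± 54.8 CPM). Sema6b and Sema6c were low in RGC clusters (0.857 to 3.31 CPM and 8.25 to 12.5 CPM) and reached 16.5 and 45.8 CPM in the Int Clusters 13 and 18. Other neurons came close, with 15.3 CPM of Sema6b in the PN Cluster 22 and 43.2 CPM of Sema6c in Cluster 14. The highest cluster was the same in 12 and 11 of the 20 other ways of computing the map. Sema7a, the lipid-anchored member and a ligand of plexin C1, was highest in the callosal PN Cluster 1 (55.8 ± 4.47 CPM), above Cluster 9 (35.7 CPM) in 11 of 11 embryos.

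**Figure D1:**
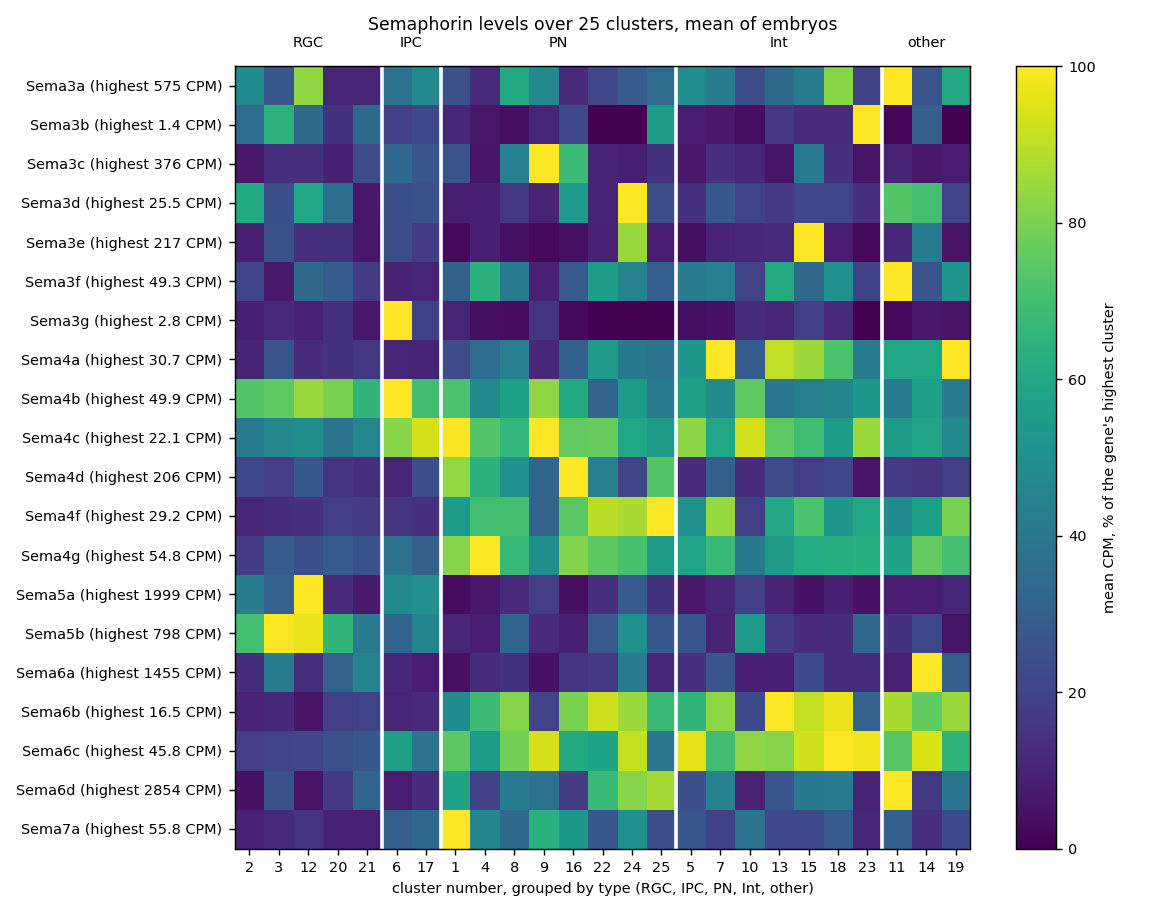
Mean level of each mapped semaphorin (rows) in the 25 clusters (columns, grouped by type), as a percentage of that gene's highest cluster, whose CPM stands beside the symbol. Sema5a is brightest in Cluster 12, Sema5b in Clusters 3 and 12, Sema3c in Clusters 9 and 16, Sema6a in Cluster 14, and Sema3a, Sema3f and Sema6d in Cluster 11.

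Among the receptors, 3 partners shared their highest cluster. Nrp1 (chr8:128358604-128503363, plus strand, GRCm38) had 1726 ± 301 CPM in the early PN Cluster 9, and was above Cluster 16 (834 ± 305 CPM) in 11 of 11 embryos. Plxna4, a signalling partner of neuropilin 1 for Sema3a in cortical neurons, had 5452 ± 412 CPM in Cluster 9, and was above PN 1, Cluster 8 (4435 ± 731 CPM), in 10 of 11 embryos. Plxna2 had 2484 ± 143 CPM there, and was above the next cluster, the non-mitotic IPC Cluster 6 (1613 ± 124 CPM), in 11 of 11 embryos. Over the clusters the ranks of Plxna2 and Plxna4 were alike (Spearman correlation 0.75), those of Nrp1 and Plxna4 less so (Spearman correlation 0.41), each as a description over 25 clusters. Of the 20 pairs set side by side in this way, not all join a ligand and a receptor. Some ligands ran opposite to a receptor, with -0.70 for Sema6a and Plxna2, -0.60 for Sema4d and Plxnb1, -0.59 for Sema7a and Plxnc1, and -0.52 for Sema5b and Plxna3. Sema3c and Nrp1 had the highest value of a ligand and a receptor (0.52). Others showed little relation, such as Sema3a and Nrp1 (0.04) and Sema6d and Plxna1 (-0.03).

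The PN clusters divided on Nrp1. Against 1726 CPM in Cluster 9 and 834 CPM in the caudal subcortical Cluster 16, Nrp1 was 62.7 ± 17.5 CPM in the rostral subcortical Cluster 4, 42.5 CPM in the callosal Cluster 22 and 38.1 ± 38.6 CPM (n = 7) in PN 3, Cluster 25. Cluster 22 still had 3172 ± 607 CPM of Plxna4. After thinning to 2000 UMIs per nucleus, 87.9% ± 5.27 (SD, n = 11) of the Cluster 9 nuclei had a UMI of both Nrp1 and Plxna4, against 7.73% (n = 9) in Cluster 24, 4.39% ± 3.21 in Cluster 22 and 3.50% ± 1.42 in Cluster 4. Unthinned, the shares were 96.6%, 31.8%, 17.7% and 15.9%, at median depths of 5566, 9700, 10508 and 9236 UMIs per nucleus, and thinning left out 15, 2, 0 and 16 nuclei. Free RNA can add UMIs to any nucleus and no cluster is known to lack both genes, so no background share was set and the low shares are not read as nuclei that express both.

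Nrp2, the co-receptor of Sema3f, followed another map. It was highest in PN 2, Cluster 24 (623 ± 180 CPM, n = 10), and Cluster 19 (583 ± 115 CPM), which could not be ordered (7 of 10 embryos), then in Cluster 22 (473 CPM) and the Int Cluster 15 (457 ± 103 CPM). It was lowest in the non-mitotic RGC Cluster 12 (24.1 ± 11.5 CPM). The striatal Cluster 11, where Sema3a and Sema3f peaked, had 47.9 ± 15.2 CPM of Nrp2, below the migrating interneurons of Cluster 5 (119 CPM) in 11 of 11 embryos. For Nrp1 the values there were 126 ± 26.2 and 142 ± 28.4 CPM, and 3 of 11 embryos had the higher value in Cluster 11.

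The other plexins each had a map of their own. Plxnc1, the receptor of Sema7a, was highest in the callosal Cluster 22 (220 ± 34.8 CPM) and lowest in Cluster 9 (21.7 ± 7.39 CPM), and Sema7a had 15.3 CPM in Cluster 22. Plxnd1, the receptor of Sema3e, reached a mean of 34.5 CPM in Cluster 25, with 32.4 CPM in the Cajal-Retzius Cluster 14 and 31.3 CPM in the callosal Cluster 22, and stayed between 1.16 and 4.19 CPM in RGC, IPC and Int clusters. The first 2 of these could not be ordered (4 of 7 embryos). In the Sema3e-rich Cluster 15 it was 2.17 CPM. Plxnb1 and Plxnb2, receptors of class 4 semaphorins, were highest in RGC clusters, with 51.6 to 62.8 CPM and 31.5 to 42.0 CPM there and lows of 14.3 and 11.7 CPM in Cluster 25. Other clusters came close, with 59.8 and 31.7 CPM in the Int Cluster 10. The early PN Cluster 9 (49.9 and 29.2 CPM) was near the IPC clusters (49.1 to 55.3 and 27.3 to 28.7 CPM). Plxna1 was highest in the Int Cluster 7 (54.5 ± 10.1 CPM), and Plxna3, another A-type plexin, varied 2.17-fold from its highest to its lowest cluster.

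**Figure D2:**
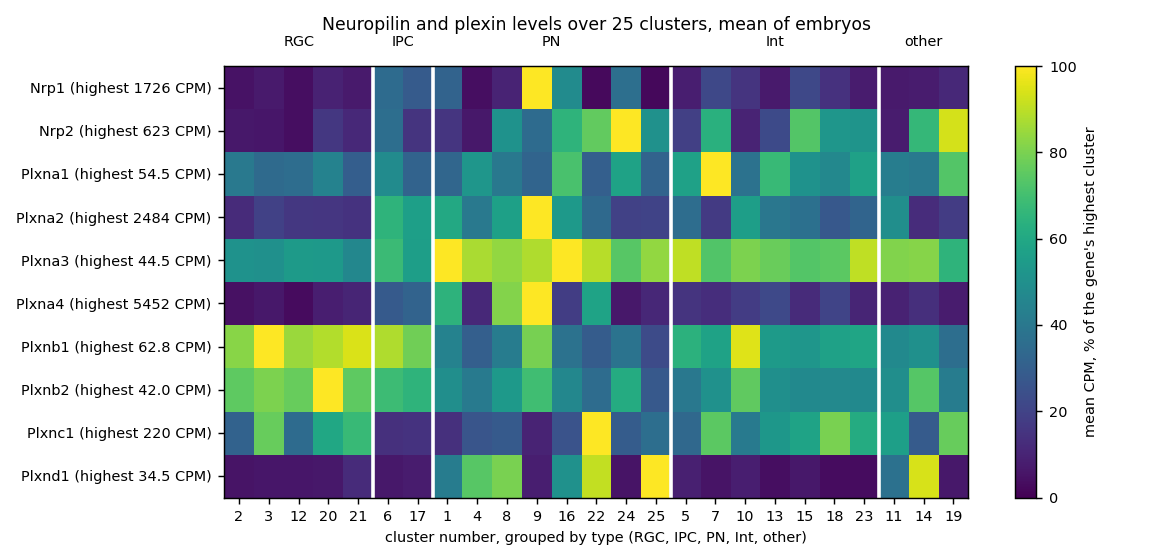
Mean level of both neuropilins and the 8 mapped plexins (rows) in the 25 clusters (columns), as a percentage of the gene's highest cluster, whose CPM stands beside the symbol. Nrp1, Plxna2 and Plxna4 share Cluster 9 as their highest, Nrp2 is highest in Clusters 24 and 19, and Plxnd1 is brightest in Clusters 25, 14 and 22.

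From Cluster 2 through Clusters 6 and 9 to Cluster 1, Plxna4, Nrp1 and Sema3c peaked in the early PN cluster, and the class 5 ligands were higher in the progenitors. From RGC 1 (Cluster 2) to the non-mitotic IPC Cluster 6 and the early PN Cluster 9, Plxna4 went from 251 to 1548 to 5452 CPM, Nrp1 from 84.2 to 602 to 1726 CPM, and Sema3c from 25.6 to 129 to 376 CPM, each step upward in 11 of 11 embryos. In the callosal PN Cluster 1 the 3 genes were at 3533, 550 and 96.4 CPM, below Cluster 9 in 11 of 11 embryos. Sema5b went from 560 to 258 to 99.5 CPM over the same steps, each downward in 11 of 11 embryos. In Cluster 1 it was at 85.2 CPM, below Cluster 9 in 8 of 11 embryos. Sema5a started at 850 CPM in Cluster 2, had 947 CPM in Cluster 6 (higher in 10 of 11 embryos), and then went down to 360 CPM (Cluster 9) and 67.7 CPM (Cluster 1). Other clusters departed from this. PN 2, Cluster 24, had 399 CPM of Sema5b and 584 CPM of Sema5a. The mitotic IPC Cluster 17 had 1726 CPM of Plxna4, above Cluster 6 in 7 of 11 embryos. The clusters are the authors' and the order is that of their names, not a measured time.

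**Figure D3:**
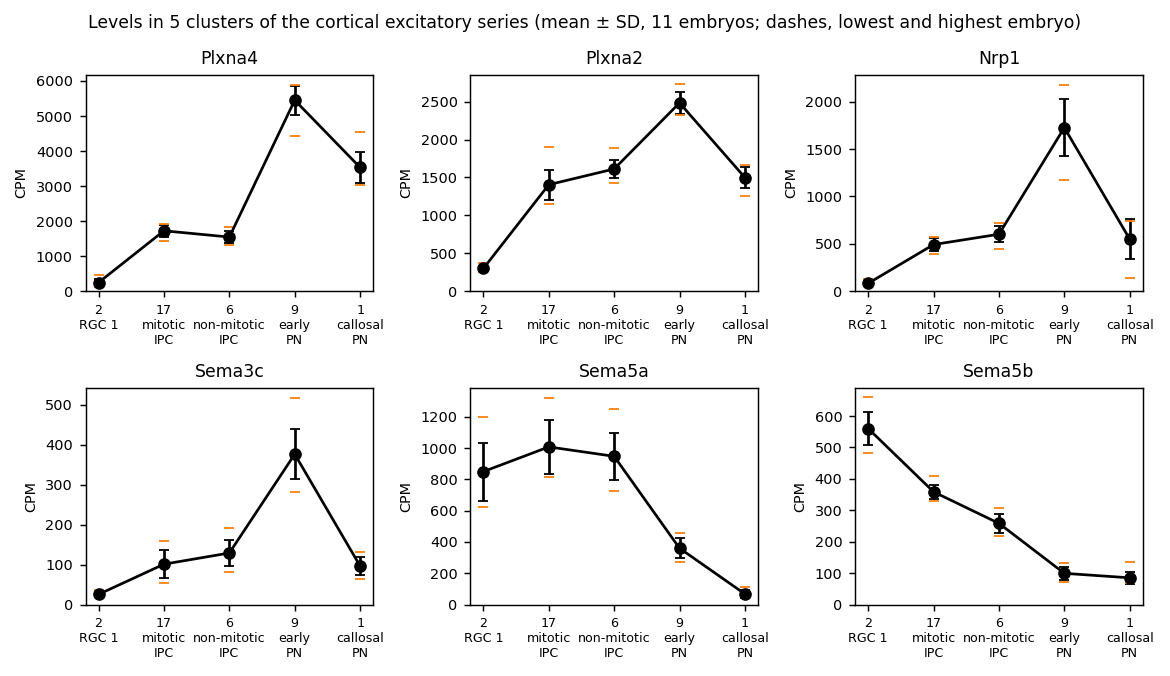
CPM of 6 members in 5 excitatory clusters ordered by name from radial glia to callosal neurons, as mean ± SD of 11 embryos with dashes at the lowest and highest embryo. Plxna4, Plxna2, Nrp1 and Sema3c peak in Cluster 9 (means 5452, 2484, 1726 and 376 CPM), and Sema5a and Sema5b are lower there and in Cluster 1 than in Clusters 2, 17 and 6.

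Plxna4 lies on the minus strand (chr6:32144268-32588192) and overlaps 3 transcripts of the plus strand, Plxna4os1, Plxna4os2 and Plxna4os3, which the rule does not take. The last of these was also highest in Clusters 9 (218 CPM) and 8 (176 CPM) and ranked with Plxna4 over clusters (Spearman correlation 0.98, n = 25). The sources name a 3′ kit and the default Cell Ranger settings and do not describe strand further. Of the genes of the 6 pairs given in full below, Sema5b, Sema3a and Sema6d also overlap a gene on the other strand, and Sema3c and Nrp1 do not.

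Before the treatments are compared, the littermates S2-1 and S2-2 need a description, which was made after their values were seen. In the callosal PN Cluster 1, Nrp1 was 184 CPM in S2-1 and 137 CPM in S2-2, and 458 to 739 CPM in the other 9 embryos of both treatments. In Cluster 9 the values were 1172 and 1179 CPM against 1717 to 2179 CPM, and in Cluster 16 they were 192 and 347 CPM against 743 to 1106 CPM. Both embryos were thus below all others in Nrp1 in these PN clusters, and likewise in PN 1, Cluster 8 (118 and 124 CPM against 142 to 223 CPM).

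Other members were high in the same embryos. In Cluster 1, Plxnd1 was 31.6 and 30.3 CPM against 3.93 to 16.6 CPM, Sema6d 2503 and 1960 CPM against 1128 to 1650 CPM, and Sema5a 113 and 104 CPM against 45.7 to 92.6 CPM. In Cluster 4, Plxna4 was 1367 and 925 CPM against 289 to 683 CPM, Sema5b 155 and 144 CPM against 41.6 to 54.0 CPM, and Sema3c 35.7 and 41.6 CPM against 11.9 to 30.9 CPM. In all, S2-1 and S2-2 were both outside the range of the other 9 embryos, on the same side, in 58 of 600 pairs of a mapped member and a cluster. The other 10 pairs of littermates were so in 6 to 57, so by this count S2-1 and S2-2 did not stand out from E1-1 and E1-2, at 57.

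EtOH was compared with saline in each cluster, with embryos as replicates, to ask whether PAE changed the levels of these guidance genes. Of the 31 members, 28 passed the filter on low counts in 1 or more clusters, giving 570 pairs of a member and a cluster, and Sema3b, Sema3g and Plxnb3 passed in none. A pair was called at an adjusted p under 0.05 (edgeR's quasi-likelihood test with Benjamini-Hochberg adjustment over all genes of the cluster) and a fold below 0.8 or above its inverse. By this rule 2 pairs were called, Sema3c in Cluster 4 and Sema5b in Cluster 5, both lower after EtOH. Over all genes, 0.35% of tests were called lower and 0.442% higher. No member was called higher by edgeR, where DESeq2 called 18 pairs, 1 of them higher, and limma voom 4, none higher. These are 3.16% and 0.702% of the member pairs, against 2.61% and 2.24% of all tests by the same tools. With counts summed per dam, edgeR called 4 of 643 member pairs, none of them either of the 2 above, against 0.721% of all tests. At an unadjusted p under 0.05, 58 pairs (10.2%) were lower and 19 (3.33%) higher, against 7.83% and 9.54% of all genes. The median log2 fold of the members was -0.03, and that of all genes tested was 0.01. Without S2-4, 12.6% of the member pairs were lower and 4.04% higher at the same unadjusted limit. Without S2-1 and S2-2 the shares were 7.18% and 4.38%. No share of all genes by direction stands beside these.

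Gene length moved with these directions. The median log2 fold of all genes was 0.09 for genes of up to 30 kb and -0.07 for genes over 100 kb, and those of the members were 0.06 and -0.11. Of the 58 member pairs lower at an unadjusted p under 0.05, 54 belonged to the 14 members over 100 kb, which is 16.7% of their 324 pairs. Over all genes of that length the share was 14.7%, and the members' share was near this background. In the other direction 2.78% of the long members' pairs were higher, against a background of 5.13%. Genes over 100 kb took 57.2% to 61.6% of the UMIs in saline embryos and 57.8% to 59.2% in EtOH embryos, with S2-4 at 57.2%. The part of length in the results was not tested.

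**Figure D4:**
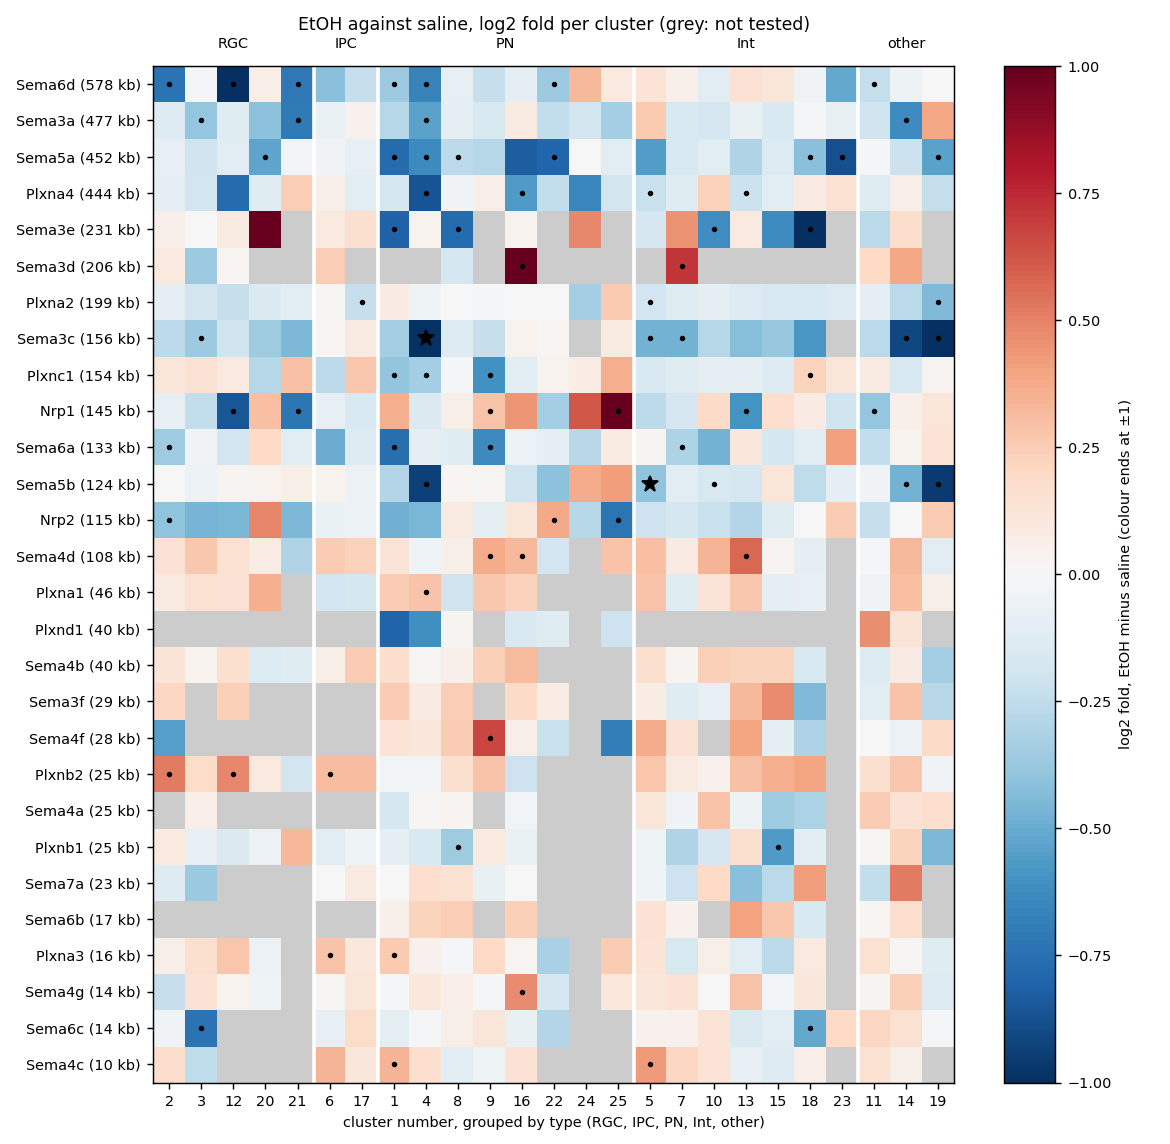
Log2 fold, EtOH minus saline, of the 28 tested members (rows, longest gene at the top) in the 25 clusters (columns), with grey where a member was not tested. Stars mark the 2 called pairs and dots an unadjusted p under 0.05, and 54 of the 58 marked pairs in the lower direction lie in the rows over 100 kb.

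Since only 2 pairs were called, the 6 pairs with the smallest unadjusted p are given in full, and were chosen so. Sema3c in the rostral subcortical PN Cluster 4 had 30.9, 25.3, 35.7, 41.6 and 23.9 CPM in S1-1, S1-2, S2-1, S2-2 and S2-4, and 11.9, 15.4, 16.4, 17.6, 21.3 and 12.3 CPM in E1-1, E1-2, E2-1, E2-2, E2-3 and E2-4. All 6 EtOH embryos were below all 5 saline embryos. The means were 31.5 ± 7.35 CPM (n = 5) and 15.8 ± 3.51 CPM (n = 6), a log2 fold of -0.99 (SE 0.16, adjusted p = 0.0382 by edgeR), where 0.386% of the genes of this cluster were called lower. Cluster 4 ranks 23 of 25 clusters for this gene, and 20 to 71 UMIs stood behind each EtOH value and 99 to 275 behind each saline value. Within batch 1 the means were 28.1 and 13.6 CPM, and within batch 2 they were 33.8 and 16.9 CPM.

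The call of Sema3c depended on which embryos entered the fit, and its direction was the same under each alternative run. Without S2-4 the log2 fold was -1.08 (adjusted p = 3.8e-05 by edgeR), without S2-1 and S2-2 it was -0.81 (adjusted p = 0.14), and with batch as a replicate block it was -1.02 (adjusted p = 0.0522), so the last 2 ended the call. With counts summed per dam, the exposed unit, the log2 fold was -1.01 (adjusted p = 0.0816), and in limma voom, where dams were a random effect, it was -0.96 (adjusted p = 0.0604). Leaving out any 1 of S1-1, S2-1, S2-2, E1-1, E1-2, E2-1, E2-2 and E2-4 also ended it, with a log2 fold of -0.89 to -1.02. Of the marker lists of 17 cell groups, none separated the treatments in this cluster. The summed interneuron markers had 231 to 634 CPM in saline and 126 to 405 CPM in EtOH embryos, and the summed Cajal-Retzius markers 170 to 338 and 133 to 204 CPM. The part of these in the result was not tested.

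Sema5b in the migrating Int Cluster 5 had 202, 227, 280, 214 and 245 CPM in S1-1, S1-2, S2-1, S2-2 and S2-4, and 206, 180, 178, 169, 175 and 193 CPM in E1-1, E1-2, E2-1, E2-2, E2-3 and E2-4. The groups overlapped, with 5 of 6 EtOH embryos below all saline embryos and E1-1 above S1-1. The means were 234 ± 30.3 CPM (n = 5) and 184 CPM (n = 6, range 169 to 206), a log2 fold of -0.40 (SE 0.078, adjusted p = 0.0281 by edgeR), where 0.813% of the genes of this cluster were called lower. Within batch 1 the means were 215 and 193 CPM and within batch 2 they were 246 and 179 CPM. Without S2-4 the log2 fold was -0.41 (adjusted p = 0.00164), and without S2-1 and S2-2 it was -0.36 (adjusted p = 0.126), which ended the call. Counts summed per dam also ended it (-0.41, adjusted p = 0.104), and limma voom with dams as a random effect did not (-0.40, adjusted p = 0.0242). Leaving out any 1 of S1-2, S2-1, E1-2, E2-1, E2-2 and E2-3 also ended it, with a log2 fold of -0.33 to -0.40. Over 24 alternatives the call was kept in 14, among them DESeq2 (-0.41, adjusted p = 0.00202), and lost in 10. In this cluster the summed striatal markers were 280 to 372 CPM in saline and 146 to 256 CPM in EtOH embryos, and the summed hem markers 6.47 to 37.0 and 2.33 to 6.15 CPM, neither of which overlapped. Their part in the result was not tested.

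The next 4 pairs were not called. Sema3c in Cluster 19 had 45.5, 72.6, 20.4, 45.1 and 52.2 CPM in S1-1, S1-2, S2-1, S2-2 and S2-4, and 0, 8.39, 10.5, 16.8, 19.1 and 22.9 CPM in the EtOH embryos in the order above. The 0 stands for 0 of 90266 UMIs, which allows up to 33.2 CPM, and the other EtOH values rest on 2 to 10 UMIs. The groups overlapped only through S2-1 and E2-4, and the log2 fold was -1.61 (SE 0.37, adjusted p = 0.0851 by edgeR), -1.58 without S2-4 (adjusted p = 0.0354), -1.82 without S2-1 (adjusted p = 0.0135) and -1.91 without S2-1 and S2-2 (adjusted p = 0.0155). Of 23 alternatives 5 gave a call and 18 did not. Among the 18 were edgeR with counts summed per dam (-1.71, adjusted p = 0.107) and with at least 30 nuclei (-1.46, adjusted p = 0.155). Cluster 19 expressed the summed pan-neuronal markers at 2026 to 2376 CPM in saline and 1740 to 2005 CPM in EtOH embryos, which did not overlap either, and the part of this was not tested.

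Sema6d in the non-mitotic RGC Cluster 12 had 274, 189, 300, 194 and 128 CPM in the saline embryos, with S2-4 the lowest, and 124, 108, 122, 95.1, 57.9 and 104 CPM in the EtOH embryos. All 6 EtOH embryos were below all saline embryos. The log2 fold was -1.14 (SE 0.26, adjusted p = 0.0801 by edgeR), -1.28 without S2-4 (adjusted p = 0.00129) and -1.02 without S2-1 and S2-2 (adjusted p = 0.222). It was called with counts summed per dam (-1.20, adjusted p = 0.000119), after thinning (-1.07, adjusted p = 0.00423) and by DESeq2 (-1.15, adjusted p = 0.000482). Of 24 alternatives 6 gave a call and 18 did not, with limma voom (-1.10, adjusted p = 0.0676) among the 18. The summed Cajal-Retzius markers of this cluster were 49.3 to 143 CPM in saline and 26.7 to 49.0 CPM in EtOH embryos, and their part was not tested.

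Sema3a in the interneuron precursors of Cluster 3 had 201, 204, 134, 180 and 162 CPM in the saline embryos and 143, 139, 150, 135, 137 and 139 CPM in the EtOH embryos. Here S2-1 was below every EtOH embryo and the other 4 saline embryos were above all of them. The log2 fold was -0.39 (SE 0.10, adjusted p = 0.053 by edgeR), -0.44 without S2-4 (adjusted p = 0.00621), -0.47 without S2-1 (adjusted p = 0.0368) and -0.50 without S2-1 and S2-2 (adjusted p = 0.0777). Of 24 alternatives 5 gave a call and 19 did not. Among the 19 were edgeR with counts summed per dam (-0.42, adjusted p = 0.225) and after thinning (-0.29, adjusted p = 0.193).

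Nrp1 in PN 3, Cluster 25, was the only pair of the 6 with the higher level after EtOH. It had 34.0, 23.2, 21.4, 10.1 and 16.5 CPM in the saline embryos, and 39.1 and 123 CPM in E2-2 and E2-3, the only EtOH embryos with at least 10 nuclei there. These rest on 11 and 31 UMIs, both from batch 2, and the log2 fold was 1.93 (SE 0.48, adjusted p = 0.633 by edgeR), 1.84 without S2-4 (adjusted p = 0.32) and 1.70 without S2-1 and S2-2 (adjusted p = 0.702).

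**Figure D5:**
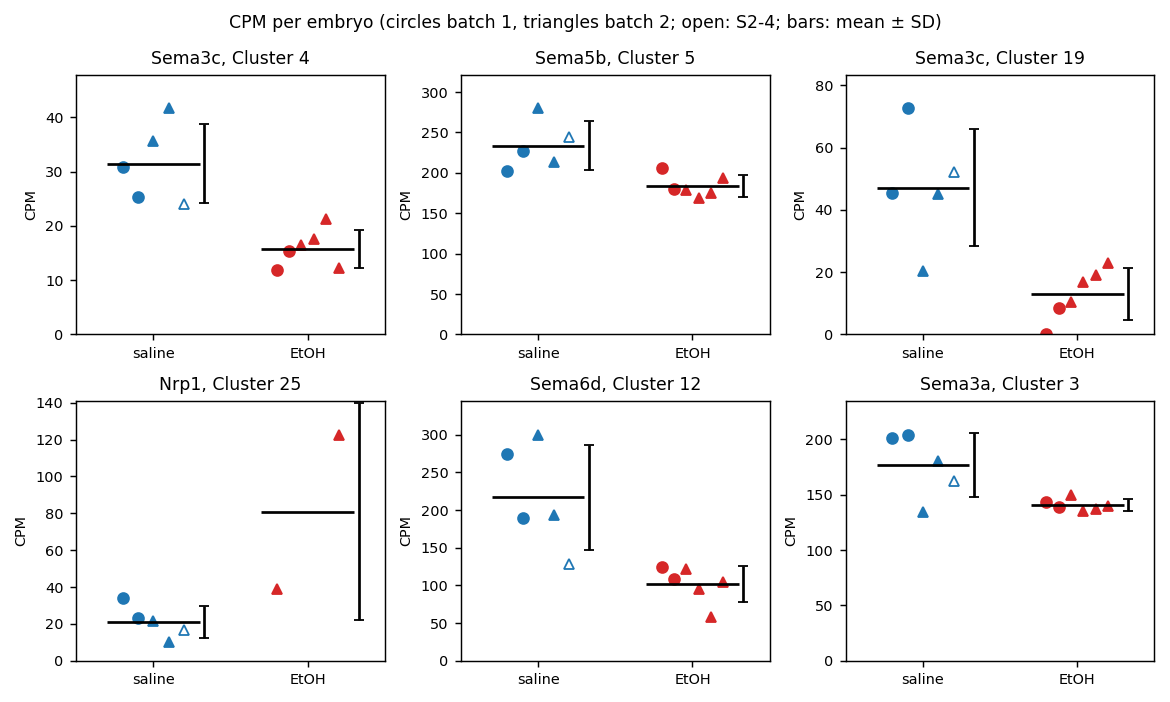
CPM per embryo in saline (blue) and EtOH (red) for the 6 pairs with the smallest unadjusted p, with circles for batch 1, triangles for batch 2, an open triangle for S2-4 and bars for mean ± SD. EtOH embryos lie below all saline embryos for Sema3c in Cluster 4 and Sema6d in Cluster 12, and the groups overlap for Sema5b in Cluster 5 and Sema3a in Cluster 3.

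The 2 called pairs were also set against the same gene's other clusters. They were chosen for their EtOH difference in these clusters, so the values are a description, with no test. For Sema3c, the log2 CPM in Cluster 4 minus the mean of its other 22 clusters, was -1.04 ± 0.43 for saline and -1.64 ± 0.26 for EtOH. The difference was -0.60. For Sema5b, Cluster 5 against the other 24 clusters gave 0.23 ± 0.16 and 0.02 ± 0.06, a difference of -0.21. Without S2-1 and S2-2 the difference of Sema3c was -0.29 and that of Sema5b -0.25.

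Over all clusters, several members leaned one way, where 49.0% of the pairs of all genes were lower after EtOH and genes over 100 kb had the median of -0.07 given above. Sema5a was lower after EtOH in 24 of 25 clusters, with a median log2 fold of -0.21, and in 8 of them at an unadjusted p under 0.05. Without S2-4 its median was -0.29. Sema3a was lower in 21 of 25 (median -0.16), Plxna2 in 20 of 25 (-0.12), Plxna4 and Sema6a in 18 of 25 (-0.12 and -0.11), Sema3c in 18 of 23 (-0.34), and Nrp2 and Sema6d in 17 of 25 (-0.18 and -0.10). Plxnb1, a gene of 24.5 kb, was lower in 15 of 21 (-0.08). The 8 genes before it are longer than 100 kb. The clusters of an embryo share its library, so these are not independent repeats. In the other direction, Sema6b was lower in 1 of 11 clusters (median 0.16), Sema3d in 2 of 9 (0.20), and Plxnb2 and Sema4b in 5 of 21 (0.18 and 0.08). Sema4c was lower in 5 of 17 (0.14), Sema3f in 5 of 16 (0.13) and Sema4d in 6 of 23 (0.14). Plxna3 and Sema4g were lower in 7 of 22 (0.06 and 0.05), Plxna1 in 7 of 20 (0.14) and Sema3e in 7 of 19 (0.03). Of these genes, Sema3d, Sema4d and Sema3e are longer than 100 kb. The class 3 to 7 ligands together had a median of -0.02, the plexins -0.03 and the neuropilins -0.11. The counts of clusters are from all embryos and are not given without S2-1 and S2-2. Those saline littermates were both above the other 9 embryos for Sema5a in Clusters 1, 4, 5 and 16. They were so for Sema6d in Clusters 1, 2, 4, 6 and 11, and for Sema6a in Clusters 1, 6, 7, 8, 9, 17 and 22. For Plxna2 they were above in Cluster 17 and below in Cluster 1. Their part was not tested.

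Of the embryos left out one at a time, the library labelled S2-4 changed the count of calls most. Without it 32 of 570 pairs were called by edgeR, 28 lower and 4 higher, where 2.61% of all tests were called lower and 6.17% higher. The lower calls fell on Sema5a (6 clusters), Sema6d (5), Sema6a (4), Sema3c (3), Sema3a and Sema5b (2 each), and Nrp1, Nrp2, Plxna4, Plxnc1, Sema3e and Sema6c (1 each). The largest of the Sema5a calls was in the callosal PN Cluster 22 (log2 fold -0.94, adjusted p = 0.000962), and in Cluster 1 it was -0.92 (adjusted p = 4.3e-05), where all embryos gave -0.77 (adjusted p = 0.0697). The higher calls were Plxnb2 in Clusters 2, 5 and 12 (log2 fold 0.60, 0.45 and 0.61) and Sema4d in Cluster 9 (0.45). Without S2-1 and S2-2 instead, 1 pair was called, Sema3c in Cluster 19, where 0.0258% of all tests were called lower and 0.00588% higher. The members called thus depended on which saline libraries were kept.

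The other genes of the pathway were taken from a list of 47 co-receptors and effectors, of which 45 were tested in 896 pairs of a gene and a cluster. By edgeR 2 pairs (0.223%) were called, both lower, where 0.35% of all tests were called lower, 1 of them among the kinases and 1 among the redox and adaptor genes of the list, where Chn1 was filed. At an unadjusted p under 0.05, 115 pairs were lower and 33 higher, or 12.8% and 3.68%, against 7.83% and 9.54% of all genes. Over all genes longer than 100 kb these shares were 14.7% and 5.13%, and the listed genes were not compared by length. The part of length here was not tested. Rock2, a kinase that drives actomyosin contraction downstream of plexins, was 218 to 249.5 CPM (mean 234) in saline and 178 to 206 CPM (mean 193) in EtOH embryos in RGC 1, Cluster 2 (log2 fold -0.33, SE 0.063, adjusted p = 0.0389 by edgeR), where 0.363% of genes were called lower. Chn1, a Rac GTPase-activating protein of axon guidance, was 311 ± 27.3 and 252 ± 23.9 CPM in Cluster 5 (log2 fold -0.35, SE 0.079, adjusted p = 0.0358 by edgeR), where 0.813% of genes were called lower, and E2-1 (284 CPM) lay above the lowest saline embryo, S2-4 (276 CPM). The 9 tested kinases had a median log2 fold of -0.12 over 212 pairs, the lowest of the 5 classes of the list. Leaving out any 1 embryo other than S2-4 ended both calls, with log2 folds of -0.30 to -0.36 for Rock2 and -0.31 to -0.39 for Chn1. Counts summed per dam also ended both (adjusted p = 0.204 and 0.136), and limma voom with dams as a random effect ended that of Rock2 (adjusted p = 0.0532). DESeq2 kept both calls (adjusted p = 0.00287 for Rock2 and 0.00769 for Chn1). Without S2-1 and S2-2 together neither gene was called (adjusted p = 0.156 for Rock2 and 0.189 for Chn1), and with batch as a replicate block Rock2 lay just short of the fold limit (log2 fold -0.32).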

How the data were processed

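The authors aligned reads with Cell Ranger to mm10, filtered nuclei and genes, and clustered after a correction for batch and dam. They removed a cluster of low transcript count and the thalamic and non-neuronal clusters. The remaining nuclei were clustered again by them into 25 clusters, which they then classified. They deposited raw UMI counts per gene and nucleus, split by embryo and cluster. Here the counts were summed per embryo and cluster (Python 3.11.15, NumPy 2.4.6, SciPy 1.17.1, pandas 2.3.3, matplotlib 3.10.9), and 9 sums with fewer than 10 nuclei were left out. Doublets were not called. edgeR 4.0.16 in R 4.3.3 (glmQLFit with the robust option, TMM, filterByExpr) was fitted per cluster over all genes, with at least 2 embryos per group, and tested on simulated data. The simulated embryos were independent, with no effect of dam or batch, so they cannot show the rate of false calls in this design. DESeq2 1.42.0, limma 3.58.1 (voom) and other normalizations, filters, depths, batches and embryos left out served as alternatives. Littermates were taken as independent, so p-values measure the spread between embryos of 2 dams per treatment. Depth was 14078316 to 83061737 UMIs per embryo. Errors are SDs between embryos, and the limit given for a count of 0 is 3 counts and covers counting error only. Littermates were not duplicates: the mean chi-square per gene was 48.7 to 89.7 among the 3 embryos of dam S2, with 61.9 between S2-1 and S2-2, and 4.33 to 12.3 among the others.

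The batch numbers pair the samples, as the labels give S1 and E1 the same batch, and S2 and E2 another. Over 7629 genes the differences between dams, S1 minus S2 and E1 minus E2, correlated at r = 0.0126. The text names all members, the highest cluster of most of those with at least 100 UMIs and the lowest cluster of some of them. It also names the pairs called (or the 6 with the smallest p where fewer than 4 are called), and called pathway genes. Other pairs of S2-1 and S2-2 were named after their values were seen. The members, lists and tests were chosen with earlier results of these data known. Gene positions are from GENCODE M21, which held 98.4% of the symbols.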

Additional observations from a re-analysis of the deposited data

Results flagged for a closer look

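Both pairs called after EtOH were set against the same gene's other clusters. The EtOH minus saline value of Sema5b in Cluster 5, less the mean of its other clusters, was -0.21 on the log2 scale. That of Sema3c in Cluster 4 was -0.60, and -0.29 without S2-1 and S2-2. The pairs had been chosen for their difference in these clusters, so no p is given and these values are a description. Among 17 groups of 4 to 10 embryos checked for a value far from the others, 2 had one. No rate by chance is known for values as sparse as these. Sema3b in Cluster 23 was 10.7 CPM in E1-2 and at most 3.23 CPM in the other 9 embryos, but the 10.7 CPM stands for 1 UMI. Sema3d in Cluster 24 was 119 CPM (48 UMIs) in S2-2 and at most 48.3 CPM in the other 9.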

How the results depend on the processing

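Against 2 member calls, the count was 33 with no filter on low counts, 1 with batch as a replicate block, 4 with counts summed per dam, 6 with nuclei thinned to 2000 UMIs, 33 in batch 1 alone, 1 in batch 2 alone, 18 with DESeq2, 4 with limma voom and 1 without S2-1 and S2-2, an alternative chosen after seeing the data. The 4 calls with counts summed per dam were other pairs (Nrp1 and Sema6d in Cluster 12, Sema5a and Sema6a in Cluster 1), both calls made with embryos were lost, and the 4 are 0.622% of the member pairs, against 0.721% of all tests in that fit. Leaving out each embryo gave 0 to 32 calls. Against 2 pathway calls, the same settings gave 39, 1, 1, 0, 36, 0, 11, 5 and 0 calls, no limit on the fold gave 4, and leaving out each embryo gave 0 to 45. Over all genes the 1721 calls in 217253 tests became 911 with the replicate block, 5669 with DESeq2, 4877 with voom and 880 adjusted over all clusters together. They were 10729 of 519300 tests with no filter, 653 of 116848 thinned, and 7833 of 202321 and 50 of 223275 in batches 1 and 2 alone. There were 70 of 221196 without S2-1 and S2-2, and 89 to 19059 calls with 1 embryo left out (lowest without S1-1, highest without S2-4). The cause of these changes was not tested. The member and pathway counts with no filter, thinned and in 1 batch alone have no share of pairs beside them, and are not read as a result about these genes. Apart from Sema3c in Cluster 4 and Rock2, the replicate block changed the call of no named pair. The direction of the 6 pairs given in full was the same under every alternative that could be fitted, with log2 folds of -0.81 to -1.35 for Sema3c in Cluster 4 and -0.27 to -0.48 for Sema5b in Cluster 5. The difference of Sema3c from its other clusters was -0.29 without S2-1 and S2-2 and otherwise -0.47 to -0.70. The highest cluster was kept for 20 to 30 of the 30 mapped members over the alternatives, fewest with EtOH embryos alone. The limit of 100 UMIs left Plxnb3, with 35 UMIs, off the map. The limit of 10 nuclei left 9 sums of an embryo and a cluster out of all fits.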
